A study of Mus musculus with 10 samples.

Results

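The glycolysis and hypoxia response genes are 38 genes chosen by symbol. They comprise the HIF subunits, 2 prolyl hydroxylases that mark HIF for degradation, the transporters and enzymes that take glucose to lactate, and genes known as HIF targets. All 38 were found in the table of 26888 mouse genes. Of these, 35 were above 0.5 RPM (reads-per-million units) in at least 1 of the 10 libraries and were tested. Egln3, Aldoc and Hif3a lay at or under that level in every library. They were tested only in a fit without this filter, where none was called.

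In cells with ample oxygen, prolyl hydroxylases of the Egln family modify the HIF alpha subunits, which VHL then tags for degradation. When oxygen is scarce the alpha subunits persist, pair with Arnt and bind short motifs near genes for glucose uptake, glycolysis, angiogenesis and pH control. Much of this control acts on HIF protein, which RNA sequencing does not measure.

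RNA sequencing profiles were obtained from OP9, labelled a foetal calvaria stromal line of the strain (C57BL/6xC3H)F2-op/op, although the study's text gives newborn mice as its origin. OP9 cells are used as a feeder layer that helps blood progenitors to develop in culture. Of the 10 libraries, 6 came from reaggregates, in which cells were packed together and kept for 48 h on nitrocellulose filters (0.8-μm pores) where liquid and gas meet. The other 4 came from flat cultures submersed below the medium. Reaggregates 2, 4 and 6 received IL-3, which their labels give as 200 μg/μl, and reaggregates 1, 3 and 5 did not. The label names the de Bruijn lab for flat cultures 2 and 4 and no laboratory for flat cultures 1 and 3, and it gives no source for the reaggregated cells. By the study's methods the cells of flat cultures had been kept in either of 2 laboratories, those of de Bruijn and of Medvinsky, but the labels do not name the second. All samples are of 1 cell line. By the study's methods, cells were detached with trypsin and centrifuged to make reaggregates, which were dissociated with collagenase and dispase at harvest, so handling and culture geometry cannot be told apart. Nothing in the labels says that libraries came from separate cultures, so each p-value below measures the spread between these samples.

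The deposited values are RPM, the reads assigned to a gene scaled by all reads assigned to genes in that library. The smallest step between values put the depth at 7.35 to 9.43 M reads on genes per library. At that depth 3 reads correspond to 0.318 to 0.408 RPM. This is taken as the floor, and it allows for counting error alone.

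Markers of the labelled cell type were checked first. All 9 stromal markers were above 0.5 RPM in at least 1 library, and their summed level was 14716 to 20411 RPM in reaggregates and 6379, 5100, 12128 and 3052 RPM in flat cultures 1 to 4. Their most abundant gene was Col1a2, at 7610 to 11300 RPM in reaggregates and 3310, 2070, 6340 and 1190 RPM in flat cultures. Col1a1 and Col1a2 made up most of the sum in every library. Eng (1.28 to 4.03 RPM over all libraries) and Mcam (1.59 to 9.1 RPM) were low. The level of 0.5 RPM was also passed by 6 adipocyte and 5 haematopoietic markers, so it does not single out stromal cells. Of the 6 endothelial markers, 5 were at or under 0.5 RPM in every library and the list summed to at most 1.23 RPM, with Pecam1 its most abundant gene over all libraries. The 7 haematopoietic markers summed to 15.4 to 28.1 RPM in reaggregates and to 16.1, 10.8, 23.7 and 8.09 RPM in flat cultures 1 to 4. Itga2b, the most abundant over all libraries, was 9.14 to 23 RPM in reaggregates and 6.33, 0.955, 11.8 and 3.28 RPM in flat cultures, while Ptprc and Emr1 were listed at 0 in every library. The 6 adipocyte markers summed to 225 to 650 RPM in reaggregates and to 335, 1200, 464 and 1341 RPM in flat cultures 1 to 4, with Lpl their most abundant gene overall. OP9 cells can turn into fat cells in culture, and the pair of flat cultures from the de Bruijn lab had the higher sums. These came from Fabp4 (435 and 711 RPM, against 31.3 and 47.2 RPM in flat cultures 1 and 3) and Pparg (395 and 295 RPM, against 49.4 and 58.1 RPM). Lpl differed less (365 and 331 RPM, against 254 and 358 RPM), and Adipoq was at most 0.358 RPM in flat cultures. The part of these marker levels in the results below was not tested.

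Some libraries stood apart from others with the same label. Consecutively numbered reaggregates (1 and 2, 3 and 4, 5 and 6) lay 0.28 to 0.29 apart, as the root of the mean squared log2(RPM + 0.5) difference over 16933 genes, whereas other reaggregates lay 0.53 to 0.76 apart. Flat cultures with the same label were 0.50 and 0.73 apart, and those with different labels 1.01 to 1.16. No label says what the consecutive reaggregates shared. Reaggregates 5 and 6 were low for several HIF targets. Flat culture 3 had immediate early and stress genes (12 genes) at a summed 3429 RPM, against 966, 1246 and 1297 RPM in flat cultures 1, 2 and 4 and 2332 to 2857 RPM in reaggregates. Results are given for all libraries, within each label and for subsets of the libraries.

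The first comparison asks how the transcription of these genes differed between reaggregates at the liquid-gas interface and flat submersed cultures. Several glycolysis enzymes and Adm were down-regulated in reaggregates, while Pfkfb3, Eno2, Ankrd37 and Ddit4 were up-regulated. With consecutive reaggregates, which were much alike, averaged to 1 value a pair, Pfkfb3 was still called and Eno2, Ankrd37 and Ddit4 were not. To be called, a gene had to differ by a factor of 2 or more with a limma p-value, adjusted by Benjamini-Hochberg over the 16933 genes tested, of 0.05 or less. Of 35 members tested, 4 (11.4%) rose, beside 7.32% of all genes. A further 7 (20%) fell, beside 6.53% of all genes. The remaining 24 were not called. The median log2 fold change was -0.01 over the members and 0.04 over all genes. In bulk samples, fewer cells expressing a gene and less RNA per cell cannot be told apart.

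The members were also counted by role. Of the 16 enzymes of the steps from glucose to lactate, 15 were tested. Of these, 1 rose and 5 fell, with a median log2 fold change of -0.79. The other members, 20 of them tested, gave 3 up, 2 down and a median of 0.16. Eno2 was the enzyme that rose, and Adm and Pfkfb4 were the others that fell. Both counts stand beside 7.32% up and 6.53% down over all genes, and the difference between the enzymes and the other members was not tested. The same directions were obtained after median-ratio scaling and after quantile normalization, except that Aldoa was no longer called after the latter (log2 fold change -0.93). The summed level of the enzymes was 3716 to 4296 RPM in reaggregates and 8060, 9861, 7156 and 8256 RPM in flat cultures 1 to 4. There was no overlap on this sum. The summed level of the other members was 1357 to 2061 RPM in reaggregates and 1431 to 1722 RPM in flat cultures, which overlapped.

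The members were then counted by overlap. Only Pfkfb3 was higher in every reaggregate than in every flat culture, which is 2.86% of the members tested beside 7.8% of all genes. For 9 members (25.7%) every reaggregate was lower than every flat culture, beside 11.4% of all genes. They were Ldha, Pgk1, Pgam1, Tpi1, Aldoa, Pkm2, Gpi1, Pfkfb4 and Adm. Among these 9, 7 are enzymes that act between glucose 6-phosphate and lactate.

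Because the libraries were not equally far apart, the counts were taken again within subsets. These comparisons share libraries and are not independent of each other. With consecutive reaggregates averaged to 3 values, 1 member rose (2.86%, beside 1.84% of all genes). In that comparison 7 members fell (20%, beside 2.53%). With reaggregates 1 to 4 alone, 5 members rose (14.3%, beside 11.2%). These were Pfkfb3, Eno2, Ankrd37, Car9 and Kdm3a. The subset leaves out the libraries in which Eno2, Ankrd37, Car9 and Kdm3a were low, so their calls in it are no separate evidence. In the same subset 6 members fell (17.1%, beside 6.9%). Against the de Bruijn lab flat cultures alone, 7 members rose (20%, beside 15.2%). Those that fell against the de Bruijn lab flat cultures were 10 (28.6%, beside 10.5%). Against the flat cultures with no laboratory in the label, 1 member rose (2.86%, beside 3.7%). Those that fell against these cultures were 8 (22.9%, beside 6.17%). Adm, Ldha, Pfkfb4, Pgam1, Pgk1 and Tpi1 fell, and Pfkfb3 rose, in each of these comparisons. With reaggregates 5 and 6 alone, a comparison added after the values had been seen, 0 members and 21 of all genes (15 up, 6 down) were called by limma, while 14 members and 2765 genes had an unadjusted p below 0.05.

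**Figure D1:**
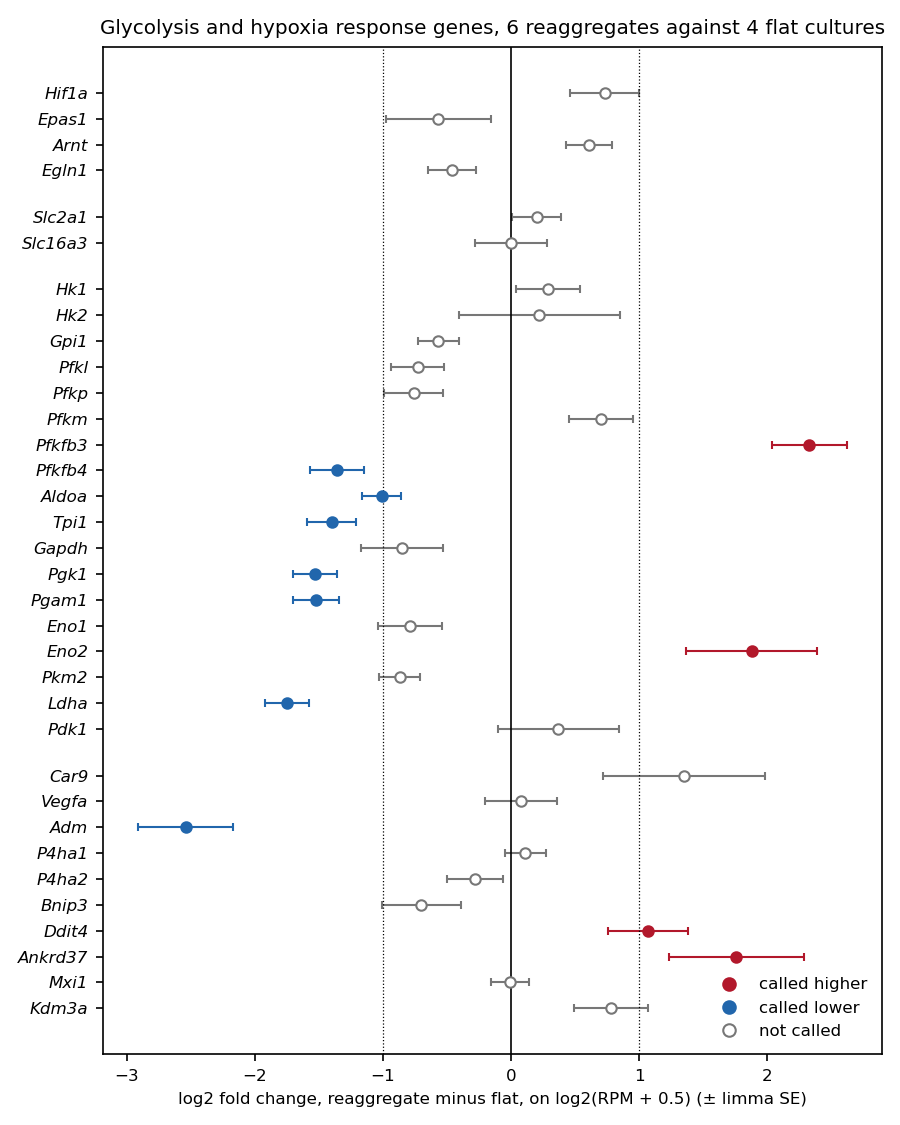
Log2 fold change of reaggregates (6) over flat cultures (4) on the x axis for the tested members on the y axis, with bars for the limma standard error, dotted lines at -1 and 1, and filled points for called genes; Ndrg1 is left out because it is listed at 0 in flat cultures 2 and 4. Pfkfb3 (2.33) and Adm (-2.54) lie at the ends, and Aldoa, Tpi1, Pgk1, Pgam1 and Ldha lie at or below -1.

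The HIF subunits are the transcription factors of the pathway. None of the 3 tested was called. Hif1a, the oxygen-regulated alpha subunit present in most cells, ranged from 274 to 662 RPM (median 362) in reaggregates and was 178, 329, 249 and 259 RPM in flat cultures 1 to 4. Reaggregates 3 and 4 were high, at 622 and 662 RPM, and reaggregate 5 lay below flat culture 2, so the groups overlapped. The log2 fold change of Hif1a was 0.73 ± 0.27 (SE; 6 reaggregates, 4 flat cultures; adjusted p = 0.0615). With reaggregates 1 to 4 alone it was 0.96 ± 0.27 (adjusted p = 0.0277), under the fold threshold.

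Epas1 encodes HIF-2α, an alpha subunit prominent in endothelial cells. It ranged from 19.3 to 57.9 RPM (median 49.7) in reaggregates and was 37.1, 56, 135 and 41.4 RPM in flat cultures 1 to 4. Flat culture 3 was the highest, reaggregates 5 and 6 were the lowest, and the groups overlapped. Epas1 had a log2 fold change of -0.57 ± 0.41 (adjusted p = 0.295). As a share of Hif1a plus Epas1, both taken per kilobase of exon, Epas1 made up 6.1 to 13.8% in reaggregates and 15.1 to 37.6% in flat cultures. These ranges did not overlap, although neither gene passed the test alone. Arnt, the shared partner of the alpha subunits, overlapped between groups (66.1 to 92.5 RPM in reaggregates, 39.3 to 73 RPM in flat cultures). Only flat culture 3 reached the reaggregates. The log2 fold change of Arnt was 0.61 ± 0.18 (limma adjusted p = 0.0296), under the fold threshold. Hif3a was listed at 0 in every library except reaggregate 1, where it was far under the floor.

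The Egln prolyl hydroxylases are the oxygen sensors that act on HIF. Egln1, the main one in most cells, was at 42.2 to 52.1 RPM in reaggregates and 42 to 94.2 RPM in flat cultures, which overlapped, and it was not called. Egln3, which is itself a HIF target in many cells, was at most 0.217 RPM in reaggregates and 0.345 RPM in flat cultures. Both lie at or under 3 reads, so a difference in Egln3 was not detectable at this depth.

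Glucose enters cells through Slc2a1 (GLUT1), and lactate leaves through Slc16a3 (MCT4). Slc2a1 ranged from 67.1 to 97 RPM (median 79) in reaggregates and was 72.2, 77.2, 96.2 and 47.7 RPM in flat cultures 1 to 4. Flat culture 4 was the lowest library and the groups overlapped. For Slc2a1 the log2 fold change was 0.20 ± 0.19 (adjusted p = 0.435). Slc16a3 was low, at 0.956 to 2.31 RPM in reaggregates and 0.835 to 2.4 RPM in flat cultures. Another gene, Csnk1d, overlaps 15.6% of its exon bases on the opposite strand.

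The hexokinases trap glucose by phosphorylation. Hk1 and Hk2 both overlapped between groups and neither was called. Per kilobase of exon, Hk1 made up 59.1 to 90.5% of the pair in reaggregates and 54 to 91.5% in flat cultures, which overlapped. Hk2, the inducible form, was 20.9 to 79.4 RPM in reaggregates and 10.2, 135, 27.3 and 52 RPM in flat cultures 1 to 4, so that both de Bruijn lab cultures lay above both others. Gpi1, which turns glucose 6-phosphate into fructose 6-phosphate, was 224 to 262 RPM in reaggregates and 276 to 500 RPM in flat cultures. No reaggregate reached the level of any flat culture for Gpi1, but its log2 fold change of -0.57 did not reach the threshold.

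Phosphofructokinase is the committed step of glycolysis, and it has a liver (Pfkl), a platelet (Pfkp) and a muscle (Pfkm) form. Pfkp ranged from 35.1 to 59.5 RPM (median 57.4) in reaggregates and was 105, 86, 99 and 55.5 RPM in flat cultures 1 to 4. Flat culture 4 lay among the reaggregates and the other flat cultures lay above them. The log2 fold change of Pfkp was -0.76 ± 0.23 (adjusted p = 0.0301), under the fold threshold. It was called against the flat cultures with no laboratory alone (-1.04 ± 0.25, adjusted p = 0.0243).

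Pfkm, the muscle form, ranged from 121 to 148 RPM (median 140) in reaggregates and was 95, 68, 152 and 49.6 RPM in flat cultures 1 to 4. Flat culture 3 was the highest of all libraries and the 3 other flat cultures lay below every reaggregate. Pfkm had a log2 fold change of 0.70 ± 0.25 (adjusted p = 0.0544). It was called against the de Bruijn lab flat cultures alone (1.22 ± 0.14, adjusted p = 0.000145) and was 0.18 ± 0.18 against the others. Pfkl overlapped between groups, at 101 to 162 RPM in reaggregates and 148 to 292 RPM in flat cultures. Its log2 fold change was -0.73 ± 0.21 (limma adjusted p = 0.0228), under the fold threshold. Per kilobase of exon, Pfkm made up 52 to 61.3% of the 3 forms in reaggregates and 22.8 to 43.1% in flat cultures. Pfkl was the largest share in every flat culture, at 44.3 to 67.9%, and Pfkm in every reaggregate. The makeup of phosphofructokinase mRNA thus differed between groups without overlap, although no single form was called over all libraries. How often such shares separate among other gene families was not counted, and those of the hexokinases and collagen prolyl hydroxylases overlapped.

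Pfkfb3 and Pfkfb4 make and remove the sugar bisphosphate that is the strongest activator of phosphofructokinase, and both are known HIF targets. Pfkfb3, in which the kinase activity prevails, ranged from 30.2 to 67.2 RPM (median 50.4) in reaggregates and was 6.1, 7.75, 14.1 and 8.99 RPM in flat cultures 1 to 4. All 6 reaggregates were higher than all 4 flat cultures, with reaggregates 5 and 6 the lowest of the 6. Pfkfb3 had a log2 fold change of 2.33 ± 0.29 (5.04-fold, adjusted p = 0.000317). It was 2.41 ± 0.31 against the de Bruijn lab flat cultures and 2.26 ± 0.39 against the others.

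Pfkfb4 moved the opposite way. It ranged from 12.9 to 25.1 RPM (median 16.1) in reaggregates and was 41.7, 40.2, 49.3 and 55.7 RPM in flat cultures 1 to 4. All 6 reaggregates were lower than all 4 flat cultures, and flat cultures of both labels were alike. Pfkfb4 had a log2 fold change of -1.36 ± 0.21 (2.57-fold lower, adjusted p = 0.00126). It was -1.40 ± 0.27 against the de Bruijn lab flat cultures and -1.33 ± 0.27 against the others. Per kilobase of exon, Pfkfb3 made up 52.9 to 68.2% of the pair in reaggregates and 7.91 to 14.4% in flat cultures. The more abundant of the pair was therefore Pfkfb3 in every reaggregate and Pfkfb4 in every flat culture.

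Aldolase and triose phosphate isomerase act where the phosphorylated sugar is split. Aldoa ranged from 436 to 492 RPM (median 466) in reaggregates and was 906, 1200, 754 and 951 RPM in flat cultures 1 to 4. Each reaggregate was lower than each flat culture. Aldoa had a log2 fold change of -1.01 ± 0.15 (adjusted p = 0.00102), which is just past the fold threshold. The change was short of the threshold without reaggregate 1 (adjusted p = 0.00404), reaggregate 6 (-0.99) or flat culture 2 (-0.89), and within the flat cultures with no laboratory (-0.82 ± 0.13, adjusted p = 0.004). It was also not called with reaggregates 1 to 4 alone (-0.98) or with only the reaggregates with IL-3 (-1.01, adjusted p = 0.0526). Nor was it called with only those without IL-3 (adjusted p = 0.0473, short of the fold threshold). Against the de Bruijn lab flat cultures it was -1.19 ± 0.14. Aldoc, the brain form, was listed at 0 in 5 reaggregates and at 0.108 RPM, under 3 reads, in the other. Its flat cultures were at 0.46, 0.239, 0.12 and 0.486 RPM, of which the first and last exceed 3 reads. Aldoc was not tested in the main fit. Without a filter it had a limma adjusted p of 0.013 but was under the fold threshold and not called.

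Tpi1, which interconverts the triose phosphates, ranged from 273 to 355 RPM (median 306) in reaggregates and was 669, 1210, 608 and 913 RPM in flat cultures 1 to 4. All 6 reaggregates were lower than all 4 flat cultures, and the de Bruijn lab cultures were the highest. Tpi1 had a log2 fold change of -1.40 ± 0.19 (adjusted p = 0.000677). It was -1.76 ± 0.16 against the de Bruijn lab flat cultures and -1.04 ± 0.14 against the others.

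Gapdh, which oxidises glyceraldehyde 3-phosphate and is widely used as a reference gene, ranged from 22.3 to 52 RPM (median 43.4) in reaggregates and was 35.6, 79.8, 80.1 and 84.9 RPM in flat cultures 1 to 4. Flat culture 1 lay within the range of the reaggregates, and reaggregates 5 and 6 were the lowest. For Gapdh the log2 fold change was -0.85 ± 0.32 (adjusted p = 0.067). It was called without flat culture 1 (-1.14 ± 0.29, adjusted p = 0.0199) and against the de Bruijn lab flat cultures alone (-1.16 ± 0.34, adjusted p = 0.02). Against the flat cultures with no laboratory it was -0.54 ± 0.42.

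The low level of Gapdh has to be read with its copies. Reads with more than 1 possible gene of origin were shared out between those genes by the authors, and 43 near-identical copies of Gapdh have rows of their own. A copy was taken as at least 95% identical over at least 20% of the exon bases. With the copies added, Gapdh was 54.2 to 79.4 RPM in reaggregates and 84.5, 240, 138 and 191 RPM in flat cultures 1 to 4. With this sum the groups no longer overlapped, and the value was called, with a log2 fold change of -1.20 ± 0.25 (adjusted p = 0.00575). Per kilobase of exon, the sum still averaged only 29.6 RPM in reaggregates and 72.5 RPM in flat cultures. Tpi1 averaged 140 and 385 RPM per kilobase, and Pgk1 with its copies 219 and 662 RPM. Whether reads of Gapdh are missing from the deposited values was not tested, so its level and call are uncertain. Copies were present for 5 more members, at 2 each for Pgk1, Pgam1 and Eno1 and 1 each for Gpi1 and Bnip3. Adding them left the call of each of these 5 as it was. The summed level of Pgk1 was 436 to 574 RPM in reaggregates and 1042 to 1857 RPM in flat cultures. That of Eno1 was 582 to 1100 RPM and 1163 to 2067 RPM, so that its groups did not overlap with the copies added (-0.96 ± 0.25, adjusted p = 0.0146). Both were well above the levels of the gene alone. The definition of a copy and this sum were chosen after the values had been seen.

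Pgk1, the first enzyme of the pathway to yield ATP, ranged from 192 to 248 RPM (median 213) in reaggregates and was 780, 591, 445 and 693 RPM in flat cultures 1 to 4. Flat cultures were all above the reaggregates. Pgk1 had a log2 fold change of -1.53 ± 0.17 (2.88-fold lower, adjusted p = 0.000179). It was -1.59 ± 0.14 against the de Bruijn lab flat cultures and -1.47 ± 0.21 against the others.

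Pgam1, which moves the phosphate of 3-phosphoglycerate, ranged from 261 to 342 RPM (median 314) in reaggregates and was 859, 1090, 616 and 995 RPM in flat cultures 1 to 4. Flat culture 3 was the lowest flat culture and was still above every reaggregate. Pgam1 had a log2 fold change of -1.52 ± 0.18 (2.87-fold lower, adjusted p = 0.000244). It was -1.78 ± 0.14 against the de Bruijn lab flat cultures and -1.26 ± 0.17 against the others.

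The enolases form phosphoenolpyruvate, with Eno1 the common and Eno2 the neuronal form. Eno1 ranged from 214 to 388 RPM (median 350) in reaggregates and was 719, 473, 672 and 345 RPM in flat cultures 1 to 4. Without its copies, flat culture 4 lay within the range of the reaggregates, and the flat cultures with no laboratory were the highest. The log2 fold change of Eno1 was -0.79 ± 0.25 (adjusted p = 0.0353), under the fold threshold. It was called against the flat cultures with no laboratory alone (-1.18 ± 0.26, adjusted p = 0.016) and was -0.40 ± 0.26 against the others.

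Eno2 ranged from 30.7 to 108 RPM (median 89.2) in reaggregates and was 19.4, 10, 48.5 and 9.6 RPM in flat cultures 1 to 4. Reaggregates 1 to 4 were between 88.3 and 108 RPM, whereas reaggregates 5 and 6, at 31.1 and 30.7 RPM, lay below flat culture 3. Eno2 had a log2 fold change of 1.88 ± 0.51 (3.69-fold, adjusted p = 0.0186). With reaggregates 1 to 4 alone it was 2.42 ± 0.44 (adjusted p = 0.00595), and with reaggregates 5 and 6 alone 0.81 ± 0.64. The call was lost without flat culture 2 (1.63 ± 0.55, adjusted p = 0.0538) or flat culture 4 (1.61 ± 0.55, adjusted p = 0.0688), and against the flat cultures with no laboratory (1.08 ± 0.58). It was also lost with consecutive reaggregates averaged (1.88 ± 0.62, adjusted p = 0.104) and without a filter (1.88, adjusted p = 0.0535). The same held with only the reaggregates with IL-3 (1.86, adjusted p = 0.111) or without it (1.91, adjusted p = 0.1). Per kilobase of exon, Eno2 was 8.39 to 35.5% of the enolase pair in reaggregates and 2.36 to 7.62% in flat cultures. With the near-identical copies of Eno1 added to it, Eno2 was 3.13 to 17.5% in reaggregates and 0.713 to 2.9% in flat cultures. Eno1 was the more abundant form in every library.

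Pkm2, the pyruvate kinase, ranged from 991 to 1130 RPM (median 1030) in reaggregates and was 1660, 2400, 1800 and 1840 RPM in flat cultures 1 to 4. All 6 reaggregates were lower than all 4 flat cultures. Pkm2 had a log2 fold change of -0.87 ± 0.16 (adjusted p = 0.00328), under the fold threshold. It passed against the de Bruijn lab flat cultures alone (-1.01 ± 0.16, adjusted p = 0.00081) and was -0.73 ± 0.15 against the others. The table has 1 row for the gene, so its splice forms could not be told apart.

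Ldha, which reduces pyruvate to lactate and is a well-known HIF target, ranged from 400 to 432 RPM (median 412) in reaggregates and was 1620, 1500, 953 and 1590 RPM in flat cultures 1 to 4. The 6 reaggregates were nearly alike and all lay below flat culture 3, the lowest flat culture. Ldha had a log2 fold change of -1.75 ± 0.17 (3.35-fold lower, adjusted p = 9.63e-05), and of the 5 called enzymes that fell it had the largest change. It was -1.90 ± 0.12 against the de Bruijn lab flat cultures and -1.59 ± 0.19 against the others.

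**Figure D2:**
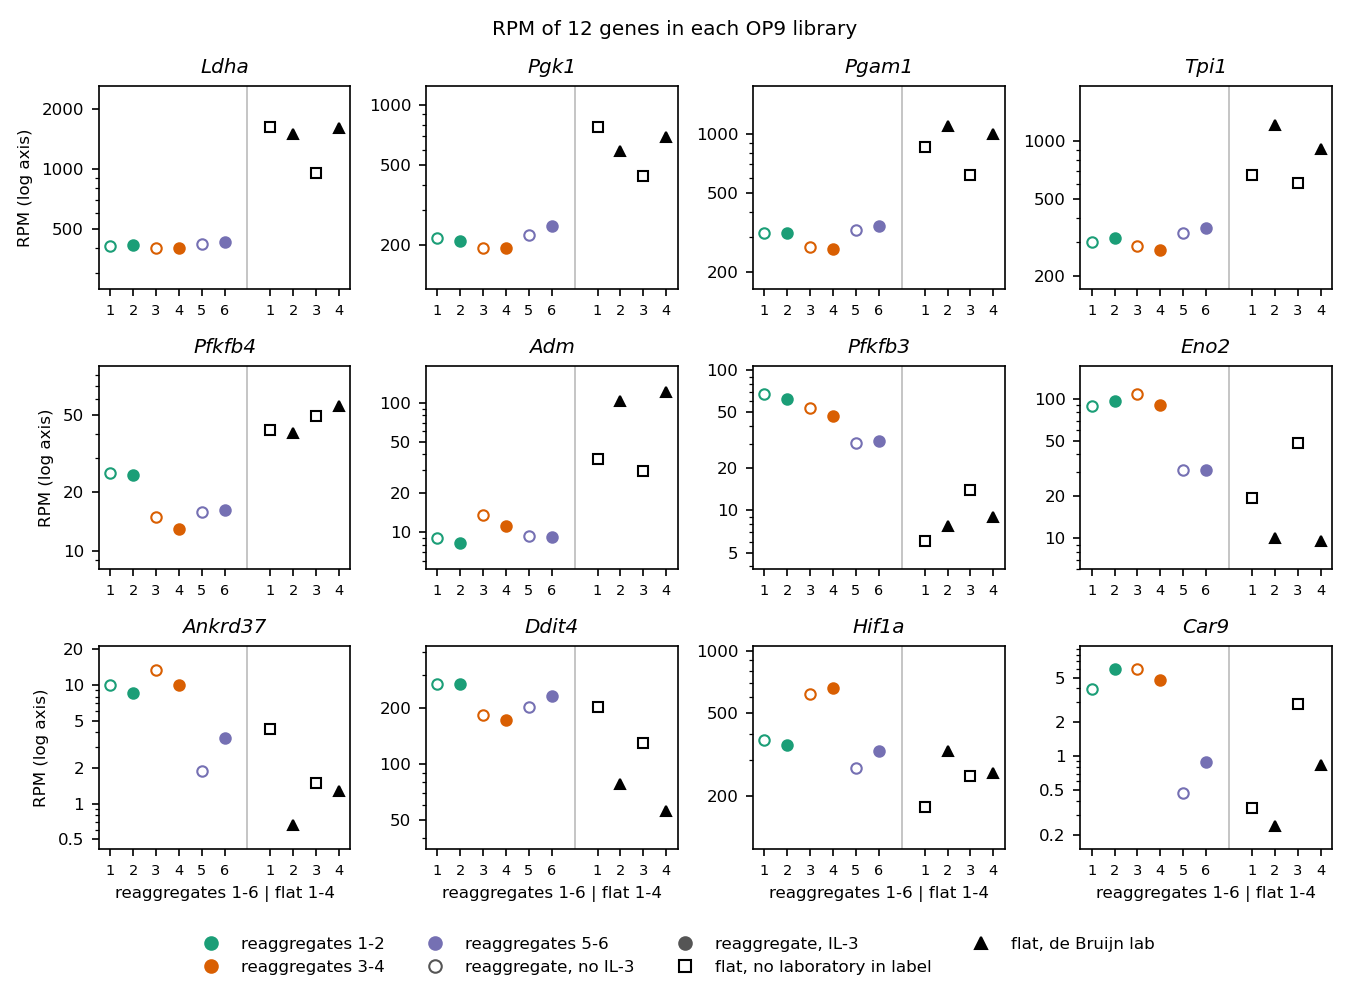
RPM on a log axis for 12 members in each library, 1 point per library, with reaggregates 1 to 6 on the left of each panel and flat cultures 1 to 4 on the right; colours mark consecutive reaggregates, open circles reaggregates without IL-3, triangles flat cultures of the de Bruijn lab and open squares the other flat cultures. Ldha, Pgk1, Pgam1, Tpi1, Pfkfb4 and Adm are lower in all 6 reaggregates than in all 4 flat cultures and Pfkfb3 is higher, whereas Eno2, Ankrd37 and Car9 are low in reaggregates 5 and 6.

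Pdk1 inhibits pyruvate dehydrogenase and so holds pyruvate back from the mitochondria. It ranged from 52.6 to 71.1 RPM (median 67.6) in reaggregates and was 126, 19, 102 and 24.8 RPM in flat cultures 1 to 4. The reaggregates lay between the flat cultures of the 2 labels, above both from the de Bruijn lab and below both others. Over all libraries Pdk1 had a log2 fold change of 0.37 ± 0.47 (adjusted p = 0.557). It was 1.55 ± 0.16 (adjusted p = 6.49e-05) against the de Bruijn lab flat cultures and -0.80 ± 0.15 (adjusted p = 0.00943) against the others, so its direction depended on the flat cultures used.

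**Figure D3:**
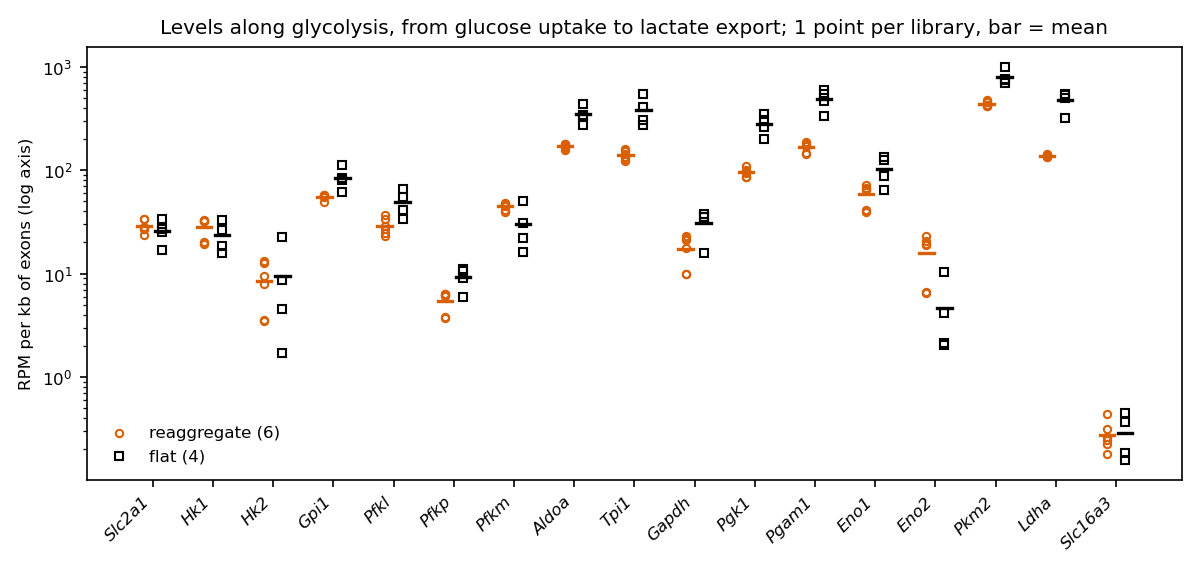
RPM per kb of exon on a log axis for the genes from glucose uptake to lactate export, with 1 point per library and a bar for the mean of each group. Pkm2 is highest in both groups (438 and 805 RPM per kb), and every reaggregate lies below every flat culture for Gpi1, Aldoa, Tpi1, Pgk1, Pgam1, Pkm2 and Ldha.

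Levels of different genes were compared per kilobase of exon, with the reads that the authors left on each gene. Pkm2 had the highest mean level of the 38 members in both groups, at 438 ± 23.6 RPM per kb in reaggregates and 805 ± 136 RPM per kb in flat cultures (SD, n = 6 and 4). In flat cultures Pgam1 (486 ± 112 RPM per kb) and Ldha (475 ± 105 RPM per kb) came next, and the distance between them was smaller than their spread. In reaggregates the next were Aldoa (170 ± 7.9 RPM per kb) and Pgam1 (166 ± 17.8 RPM per kb), which did not differ beyond their spread either. Ldha ranked 3 in flat cultures and 5 in reaggregates. Tpi1, at rank 4 in both, did not differ from Ldha beyond their spread in either group. Tpi1 was at 385 ± 124 RPM per kb in flat cultures. In reaggregates Tpi1 was at 140 ± 14.1 and Ldha at 139 ± 4.03 RPM per kb. With near-identical copies added, Pgk1 (219 ± 22.9 and 662 ± 154 RPM per kb in reaggregates and flat cultures) and Pgam1 (210 ± 20.8 and 618 ± 142 RPM per kb) followed Pkm2 in both groups. Ldha then ranked 4 in flat cultures and 7 in reaggregates, so the order depends on how reads of copies are counted.

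Proliferation genes and immediate early and stress genes were compared between the groups as well. All 12 proliferation genes fell, beside 6.53% of all genes, with a median log2 fold change of -2.21. The count was 12 against the flat cultures with no laboratory (beside 6.17% of all genes) and 9 against those of the de Bruijn lab (beside 10.5%). It was 9 with consecutive reaggregates averaged (beside 2.53%). Their summed level was 270 to 403 RPM in reaggregates and 2142, 971, 1798 and 1152 RPM in flat cultures 1 to 4, and Top2a, the most abundant over all libraries together, was 64 to 97 RPM against 489, 147, 412 and 158 RPM. In flat cultures 2 and 4, Rrm2 (235 and 259 RPM) was above Top2a. The largest changes were those of Rrm2 (-3.14), Aurka (-2.75) and Ccnb1 (-2.70). Of the 12 immediate early and stress genes, 6 rose and 0 fell, beside 7.32% and 6.53% of all genes, with a median of 1.22. The number that rose was 1 with consecutive reaggregates averaged (beside 1.84% of all genes) and 1 against the flat cultures with no laboratory (beside 3.7%). It was 7 against those of the de Bruijn lab (beside 15.2%). Their largest changes were those of Fosb (4.19), Atf3 (4.08) and Fos (2.53), and Egr1 had the highest total over all libraries, though not the highest level in each. The part of proliferation or of cell dissociation in the levels of the glycolysis enzymes was not tested.

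The remaining members are targets of HIF in many cell types, and they did not move together. Vegfa, the angiogenic growth factor, ranged from 81.5 to 203 RPM (median 157) in reaggregates and was 96.5, 146, 129 and 162 RPM in flat cultures 1 to 4. Reaggregates 3 and 4 were the highest libraries and reaggregates 5 and 6 the lowest, on either side of the flat cultures. The log2 fold change of Vegfa was 0.08 ± 0.28 (adjusted p = 0.84). It was 0.43 ± 0.19 with reaggregates 1 to 4 alone and -0.62 ± 0.26 with reaggregates 5 and 6 alone, and neither passed the test.

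Adm encodes adrenomedullin, a secreted vasodilator peptide. It ranged from 8.31 to 13.6 RPM (median 9.29) in reaggregates and was 36.5, 102, 29.8 and 120 RPM in flat cultures 1 to 4. No reaggregate reached the level of any flat culture, and the de Bruijn lab cultures were well above the others. Adm had a log2 fold change of -2.54 ± 0.37 (5.82-fold lower, adjusted p = 0.000868), the largest fall among the members. It was -3.41 ± 0.20 against the de Bruijn lab flat cultures and -1.68 ± 0.21 against the others.

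Car9, a carbonic anhydrase that regulates pH at the cell surface, ranged from 0.471 to 5.99 RPM (median 4.34) in reaggregates and was 0.346, 0.239, 2.93 and 0.834 RPM in flat cultures 1 to 4. Reaggregates 1 to 4 lay above all flat cultures, reaggregates 5 and 6 were at 0.471 and 0.885 RPM, and flat culture 3 was the highest flat culture. Several of these values are near the floor of 3 reads, and flat culture 2 is under it. Car9 had a log2 fold change of 1.35 ± 0.63 (adjusted p = 0.121). It was called with reaggregates 1 to 4 alone (2.10 ± 0.45, adjusted p = 0.0106), without reaggregate 5 (1.70 ± 0.55, adjusted p = 0.0436) and without flat culture 3 (1.81 ± 0.62, adjusted p = 0.0379).

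Ankrd37, an ankyrin repeat protein induced by HIF-1, ranged from 1.87 to 13.4 RPM (median 9.32) in reaggregates and was 4.26, 0.663, 1.5 and 1.29 RPM in flat cultures 1 to 4. Reaggregates 1 to 4 lay above all flat cultures, while reaggregates 5 and 6 lay below flat culture 1. Ankrd37 had a log2 fold change of 1.76 ± 0.53 (adjusted p = 0.0285), and 2.37 ± 0.40 (adjusted p = 0.0044) with reaggregates 1 to 4 alone. The adjusted p-value was above 0.05 without any 1 of reaggregates 1 to 4 (0.0579 to 0.0605), flat culture 2 (0.0798) or flat culture 4 (0.0806). The log2 fold change was then 1.65, 1.69, 1.57 and 1.65 without reaggregates 1, 2, 3 and 4, and 1.48 and 1.68 without flat cultures 2 and 4. Against the flat cultures with no laboratory it was 1.21 ± 0.68 and not called. Nor was it called with consecutive reaggregates averaged (1.76 ± 0.60, adjusted p = 0.114) or without a filter (1.76, adjusted p = 0.0714). The same held with only the reaggregates with IL-3 (1.79, adjusted p = 0.0915) or without it (1.73, adjusted p = 0.148). Exons of Ufsp2 and Lrp2bp on the opposite strand overlap Ankrd37, by at most 24.9% of its exon bases for 1 of them.

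Kdm3a, a histone H3K9 demethylase, ranged from 59.8 to 154 RPM (median 137) in reaggregates and was 52.5, 61.9, 63.8 and 76.4 RPM in flat cultures 1 to 4. Reaggregates 1 to 4 lay above all flat cultures and reaggregates 5 and 6 among them. For Kdm3a the log2 fold change was 0.78 ± 0.29 (adjusted p = 0.0614). With reaggregates 1 to 4 alone it was 1.18 ± 0.15 (adjusted p = 0.00176) and was called, and with reaggregates 5 and 6 alone it was -0.01 ± 0.22. Mxi1, an antagonist of Myc, overlapped between groups, at 22.3 to 29.3 RPM in reaggregates and 21.3 to 30.8 RPM in flat cultures.

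Bnip3, which takes part in mitophagy, ranged from 43.5 to 95.6 RPM (median 80.8) in reaggregates and was 108, 128, 63.8 and 201 RPM in flat cultures 1 to 4. Flat culture 3 lay within the range of the reaggregates and reaggregates 5 and 6 were the lowest. The log2 fold change of Bnip3 was -0.70 ± 0.31 (adjusted p = 0.108). It was called against the de Bruijn lab flat cultures alone (-1.17 ± 0.31, adjusted p = 0.012) and was -0.23 ± 0.33 against the others.

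Ddit4 (REDD1), an inhibitor of mTORC1 induced by several stresses, ranged from 173 to 270 RPM (median 216) in reaggregates and was 202, 78.6, 130 and 56 RPM in flat cultures 1 to 4. Flat culture 1 lay within the range of the reaggregates, and the de Bruijn lab cultures were the lowest. Ddit4 had a log2 fold change of 1.07 ± 0.31 (adjusted p = 0.0236). It was 1.71 ± 0.21 (adjusted p = 0.000173) against the de Bruijn lab flat cultures and 0.43 ± 0.23 (adjusted p = 0.223) against the others. The call was lost without reaggregate 1 (1.01, adjusted p = 0.052) or reaggregate 2 (1.01, adjusted p = 0.0517). It was also lost without flat culture 2 (0.94, adjusted p = 0.0654) or flat culture 4 (0.77, adjusted p = 0.0746). With reaggregates 1 to 4 alone the log2 fold change was 1.07 and not called (adjusted p = 0.0509). Averaging consecutive reaggregates (1.07 ± 0.41, adjusted p = 0.147) and omitting the filter (1.07, adjusted p = 0.0582) also ended the call. So did taking only the reaggregates with IL-3 (1.08, adjusted p = 0.148) or without it (1.05, adjusted p = 0.146).

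Ndrg1, a stress-responsive gene, ranged from 6.42 to 37.3 RPM (median 27.6) in reaggregates and was 37.5, 0, 36.4 and 0 RPM in flat cultures 1 to 4. It was listed at 0 in both de Bruijn lab cultures, and reaggregates 3 and 4, at 6.42 and 8.07 RPM, were lower than the other reaggregates. Over all libraries Ndrg1 was not called (adjusted p = 0.204), and no fold against cultures listed at 0 is given. Against the de Bruijn lab cultures it was called up (adjusted p = 0.000179) and is among the 7 members counted there, a call that rests on cultures listed at 0. Against the flat cultures with no laboratory its log2 fold change was -0.93 ± 0.67. In all, 14 genes were listed at 0 in both de Bruijn lab cultures while above 5 RPM in both others, and 9 genes showed the opposite pattern.

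P4ha1 and P4ha2 are the catalytic subunits of collagen prolyl 4-hydroxylase and are induced by HIF in many cells. Both overlapped between groups, at 243 to 318 RPM and 184 to 285 RPM for P4ha1 in reaggregates and flat cultures. P4ha2 was at 78.8 to 105 RPM and 65.8 to 165 RPM. Per kilobase of exon, P4ha1 was 80.6 to 83.8% of the pair in reaggregates and 72.4 to 80.9% in flat cultures, which overlapped. The 10 tested members not given in full (Egln1, Hk1, Hk2, Gpi1, Pfkl, Slc16a3, P4ha1, P4ha2, Arnt and Mxi1) had log2 fold changes from -0.73 to 0.61 and adjusted p-values from 0.0219 to 0.993.

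Among the reaggregates, differences followed the consecutive numbers and are given as a description with no test. The mean of Eno2 was 92.5, 99 and 30.9 RPM in reaggregates 1 and 2, 3 and 4, and 5 and 6. Kdm3a showed the same order, with 137, 150 and 62.6 RPM, as did Ankrd37, with 9.32, 11.7 and 2.71 RPM. Vegfa averaged 157, 200 and 85.1 RPM. Ldha averaged 412, 400 and 426 RPM, and Aldoa 462, 492 and 450 RPM. Gapdh (50.6, 43.4 and 22.4 RPM) and Hk2 (52, 77.8 and 21.1 RPM) were low in reaggregates 5 and 6. Ddit4 (269, 178 and 216 RPM), Ndrg1 (35, 7.25 and 27.6 RPM) and Adm (8.71, 12.3 and 9.29 RPM) lay there between the other pairs. Neither the enzymes nor the HIF targets thus followed a single order over the 3 pairs. Hk1 was low in the middle pair (276, 168 and 280 RPM), and Hif1a was high there (362, 642 and 302 RPM).

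The next comparison asks whether IL-3 altered these genes within reaggregates (3 with, 3 without). No member was called by limma, nor was any of the 16933 genes (0%). With no adjustment, 0 members and 68 genes had a p below 0.05. Log2 fold changes of the members lay between -0.14 for Adm and 0.24 for Car9, with a median standard error of 0.23. Ldha averaged 416 RPM with IL-3 and 410 RPM without, and Pfkfb3 47 and 50.3 RPM. The differences between libraries with and without IL-3 were thus small beside those between consecutive pairs. When each pair was taken as a block, the median standard error of the members was 0.06. No member or gene was called, and 1 member, Pfkm (-0.13 ± 0.05), and 564 genes had an unadjusted p below 0.05.

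The flat cultures allow a comparison by the laboratory named in the label (2 against 2). Adm was up-regulated in the cultures of the de Bruijn lab, which is 1 member, beside 1.82% of all genes. Pdk1 and Ndrg1 were down-regulated, which is 2 members, beside 3.87% of all genes. Adm averaged 111 RPM in the de Bruijn lab cultures and 33.1 RPM in the others, a log2 fold change of 1.73 ± 0.27 (adjusted p = 0.0303). Pdk1 averaged 21.9 and 114 RPM, a log2 fold change of -2.36 ± 0.29 (adjusted p = 0.0161). Ndrg1 was listed at 0 in the first and averaged 37 RPM in the others. Hk2 averaged 93.5 and 18.8 RPM but was not called (2.29 ± 0.64, adjusted p = 0.11). The median over all genes was -0.17 in this comparison, and that over the members -0.15. With any 1 flat culture left out, 0 members and 0 genes were called by limma, while 4 to 7 members and 1784 to 4137 genes had an unadjusted p below 0.05. Such a fit has 3 libraries, with 1 alone in its group and assumed to vary like the others, so it says little about stability. Since the label of the reaggregated cells names no laboratory, the source of the cells and the culture form cannot be told apart for the genes that differed here.

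Other genes of these pathways were examined from lists. Of 27 other glycolysis and pyruvate genes in the table, 20 were tested. Of these 2 rose and 0 fell, beside 7.32% and 6.53% of all genes, with a median log2 fold change of -0.09. With consecutive reaggregates averaged 1 rose and 0 fell, beside 1.84% and 2.53% of all genes. Against the de Bruijn lab flat cultures 4 rose and 1 fell (beside 15.2% and 10.5%). Against the others 1 rose and 0 fell (beside 3.7% and 6.17%). Pdk4, a further inhibitor of pyruvate dehydrogenase, was 214 to 288 RPM in reaggregates and 54.3, 96.4, 124 and 90.3 RPM in flat cultures 1 to 4. No library overlapped for Pdk4, and its log2 fold change was 1.46 ± 0.20 (adjusted p = 0.000645). Pgam2, the muscle form of phosphoglycerate mutase, rose by 1.03 ± 0.27 (adjusted p = 0.0156) from a low level. Pgk2 and Pklr were not in the table.

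All 36 other hypoxia pathway and HIF target genes in the table were tested. Of these 8 rose and 3 fell, beside 7.32% and 6.53% of all genes, with a median log2 fold change of 0.08. The counts were 3 and 3 with consecutive reaggregates averaged, beside 1.84% and 2.53% of all genes. Against the de Bruijn lab flat cultures they were 9 and 9 (beside 15.2% and 10.5%). Against the others they were 6 and 3 (beside 3.7% and 6.17%). Ppp1r3c, a regulator of glycogen synthesis, was 32.9 to 61.7 RPM in reaggregates and 19.2, 2.98, 19.6 and 2.31 RPM in flat cultures 1 to 4. Its log2 fold change was 2.64 ± 0.54 (adjusted p = 0.00537), with no overlap between groups and the lowest values in the de Bruijn lab cultures. Tgfb3 (2.07 ± 0.32) and Bhlhe40 (1.83 ± 0.25) also rose. Edn1, which encodes the vasoconstrictor endothelin, was at most 0.651 RPM in reaggregates and 1.96, 9.54, 2.51 and 11.1 RPM in flat cultures. Edn1 fell (adjusted p = 0.00123), but reaggregates 2, 3, 4 and 6 lay under 3 reads, so no fold is given. Tfrc (-1.68 ± 0.24) and Fam162a (-1.37 ± 0.18) fell too. As among the members, known HIF targets were called in both directions.

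For the marker lists, 5 of 9 stromal markers rose (Col1a1, Col1a2, Pdgfrb, Pdgfra and Vcam1) and 1 fell (Kitl), with a median log2 fold change of 1.12. Col1a1 (1.93 ± 0.41), Col1a2 (1.83 ± 0.41) and Pdgfrb (1.74 ± 0.26) had the largest changes. Among haematopoietic markers, 1 of 5 tested rose (Itga2b, 1.87 ± 0.51), with a median of -0.20. The only endothelial marker tested, Pecam1, was not called (-0.09). Among adipocyte markers, 2 of 6 fell (Fabp4, -2.37 ± 0.77, and Pparg, -1.67 ± 0.52), with a median of -0.97. Against the de Bruijn lab flat cultures 4 adipocyte markers fell (median -2.14), and against the others 0 did (median -0.02). By the same split, 4 stromal markers rose in each, with 0 and 1 falling, and haematopoietic markers gave 1 up against the de Bruijn lab cultures and 1 down against the others. With consecutive reaggregates averaged, 2 stromal markers rose and 0 fell, and 0 haematopoietic and 0 adipocyte markers were called by limma. Over all genes 7.32% rose and 6.53% fell with all libraries, and 1.84% and 2.53% with consecutive reaggregates averaged. Against the de Bruijn lab flat cultures 15.2% of all genes rose and 10.5% fell, and against the others 3.7% and 6.17%.

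In the NCBIM37 assembly, the members lie on many chromosomes, and few are neighbours. Eno2 (chromosome 6, 124710071 to 124719691) and Tpi1 (124760604 to 124764314) are 40.9 kb apart, and Gapdh (125111871 to 125116485) lies 348 kb beyond Tpi1. All 3 are on the minus strand. Eno2 rose, Tpi1 fell and Gapdh was not called without its copies, so these neighbours did not change alike. P4ha1 and Ddit4 lie 576 kb apart on chromosome 10, and of the pair only Ddit4 was called. Pfkfb3 lies on chromosome 2 (11393057 to 11423728, minus strand), Ldha on chromosome 7 (54096845 to 54110997, plus strand) and Adm on the same chromosome (117771175 to 117773331, plus strand).

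HIF binds a core written as ACGTG or GCGTG, so promoters of the members were searched for these letters on both strands (CACGT and CACGC on the other strand). The promoters came from a RefSeq table for GRCm38.p6, with 250 bases before and 50 after each transcription start. Of the 38 members, 36 had an entry, and Epas1 and Ndrg1 had none. A match was present in at least 1 promoter of 33 of the 36 (91.7%). Over all genes of the promoter table it was present in 12628 of 27025 (46.7%), and over genes above 0.5 RPM found by symbol in 6089 of 9177 (66.4%). Counted by promoter, 42 of 54 (77.8%) for the members and 43.8% of 32851 in all had a match. The members have more promoters per gene than genes in general, which raises a count by gene. Among members that rose 3 of 4 had a match, among those that fell 6 of 7, and among those not called 21 of 22. The letters were thus present in most members whether or not they passed the test. With the upstream bases alone, the count for members was 33 (91.7%) and that for all genes 41.5%. A match is a description of letters and not of binding.

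The 250 bases upstream of the start are shown for the 6 called members with the largest changes among those with a match, from RefSeq and GRCm38.p6, 5′ to 3′ on the strand of the gene. They are Pfkfb3 at chr2:11502091-11502340 (minus strand), Ankrd37 at chr8:45999851-46000100 (minus strand), Adm at chr7:110627407-110627656 (plus strand), Ldha at chr7:46845554-46845803 (plus strand), Pgk1 at chrX:106186850-106187099 (plus strand) and Pgam1 at chr19:41911621-41911870 (plus strand). Capitals mark ACGTG or GCGTG and, for a match on the opposite strand, CACGT or CACGC, which overlap where capitals run on. Pfkfb3 and Ankrd37 rose, and the other 4 fell.
Pfkfb3: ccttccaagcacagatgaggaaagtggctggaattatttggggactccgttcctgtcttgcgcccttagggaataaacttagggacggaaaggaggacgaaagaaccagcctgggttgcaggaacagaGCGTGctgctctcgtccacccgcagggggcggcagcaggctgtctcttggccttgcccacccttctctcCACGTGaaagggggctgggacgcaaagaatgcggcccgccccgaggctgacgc
Ankrd37: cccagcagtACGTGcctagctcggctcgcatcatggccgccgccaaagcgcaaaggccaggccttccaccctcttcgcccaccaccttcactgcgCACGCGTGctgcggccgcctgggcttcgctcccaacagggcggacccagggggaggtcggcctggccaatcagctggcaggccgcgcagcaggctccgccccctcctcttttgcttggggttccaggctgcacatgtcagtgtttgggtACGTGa
Adm: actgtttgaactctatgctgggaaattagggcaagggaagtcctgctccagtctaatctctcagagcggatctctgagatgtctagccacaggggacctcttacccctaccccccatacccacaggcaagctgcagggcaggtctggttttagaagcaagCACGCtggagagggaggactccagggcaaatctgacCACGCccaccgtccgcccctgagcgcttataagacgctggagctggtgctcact
Ldha: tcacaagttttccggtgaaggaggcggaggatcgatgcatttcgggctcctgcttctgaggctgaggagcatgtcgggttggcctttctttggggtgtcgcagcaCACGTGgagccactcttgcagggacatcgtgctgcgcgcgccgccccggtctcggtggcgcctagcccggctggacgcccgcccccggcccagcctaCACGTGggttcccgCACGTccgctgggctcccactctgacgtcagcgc
Pgk1: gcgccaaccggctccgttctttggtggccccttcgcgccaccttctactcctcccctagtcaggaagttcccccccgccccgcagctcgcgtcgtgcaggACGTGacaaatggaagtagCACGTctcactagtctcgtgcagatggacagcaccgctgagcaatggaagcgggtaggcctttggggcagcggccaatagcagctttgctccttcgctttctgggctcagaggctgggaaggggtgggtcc
Pgam1: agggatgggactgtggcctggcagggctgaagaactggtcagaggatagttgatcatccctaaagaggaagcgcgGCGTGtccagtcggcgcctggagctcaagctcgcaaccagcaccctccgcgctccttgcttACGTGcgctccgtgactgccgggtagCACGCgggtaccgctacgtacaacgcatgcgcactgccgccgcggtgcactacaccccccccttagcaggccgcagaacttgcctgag

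In these stretches Ldha had 5 matches, 4 of them in 2 copies of CACGTG, which reads the same on both strands. Pfkfb3 had 3, with 1 CACGTG, and Pgam1 had 3. Ankrd37 had 4, the nearest with its first base 6 bases before the start. Adm and Pgk1 had 2 each, at 90 and 54 and at 150 and 131 bases before the start. Members that rose and members that fell thus both carried these letters close to the start. Eno2 and Tpi1 had none in this window.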

How the data were processed

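RPM values of 10 OP9 libraries were taken as deposited. The authors aligned single-end reads with TopHat 1.2.0 to NCBIM37 (mm9), assigned them to Ensembl genes, divided reads mapping to several genes among those genes, and scaled each library to RPM. The table also holds a fold change and an adjusted p from the authors' DESeq comparison of reaggregate with flat, and these columns were not used. Read counts could not be recovered. Of values up to 20 reads, 44.5 to 48.4% lay within 0.1 read of a whole number. A looser tolerance tried first (values up to 10 RPM, within 2% of the value, or of 1 read below 1 read) gave 70.8 to 72.5%. The stricter one was adopted after both the values and an earlier figure for these data had been seen, and no test uses either. For lack of counts, limma 3.58.1 (R 4.3.3) was fitted to log2(RPM + 0.5) with a trend in the prior variance, over 16933 genes, those that exceeded 0.5 RPM in any library. P-values were adjusted by Benjamini-Hochberg over all of them, with calls at a 2-fold change and an adjusted p of 0.05. The fit was tested on simulated data.

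The members and gene lists were chosen with earlier results of these data known. Members called in the main comparison or crossing a call under the source or pair alternatives were given in full, with Hif1a, Epas1, Vegfa, Slc2a1, Ldha and Gapdh, and the 3 largest called changes each way were named from the other lists. Other genes were named after their values were seen, as were the 12 genes plotted by library, the isozyme families, the 5 RPM level for genes listed at 0, and the copies. Copies were found with BLAST 2.17.0 between exon sequences (at least 95% identity over 50 bases or more, covering at least 20% of the exon bases of the member). Lengths and positions are those of exon unions in NCBIM37. Promoters came from a RefSeq table of GRCm38.p6, matched by symbol (Pkm2 as Pkm). Alternatives changed the pseudocount, filter, scaling, thresholds, libraries and grouping. Scripts used Python 3.11.15, pandas 2.3.3 and matplotlib 3.10.9.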

Additional observations from a re-analysis of the deposited data

Results flagged for a closer look

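In 71 groups of values (members within reaggregates or within flat cultures), the highest and lowest library were compared with the rest by their distance relative to the range of the group. Chance alone picks about 1 in 20 groups, and 2 were picked. Gpi1 was 224 RPM in reaggregate 6, and 248 to 262 RPM in the other reaggregates. Gapdh was 35.6 RPM in flat culture 1, and 79.8 to 84.9 RPM in the other flat cultures. With its 43 copies added, Gapdh in flat culture 1 was 84.5 RPM, and 138 to 240 RPM in the other flat cultures.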

How the results depend on the processing

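Each of 25 members was refitted under 27 alternatives, 2 of which (reaggregates 5 and 6 only, and near-identical copies added) were chosen after seeing the data. Of 675 values, 597 kept their direction and side of the threshold, 48 were no longer called, 19 became called and 11 changed sign. The alternatives share libraries, and some cannot alter a fold change, such as those without a trend or a fold threshold. The 597 are thus not independent checks. Pfkfb3, Adm, Ldha, Pgk1, Pgam1, Tpi1 and Pfkfb4 were each called in 26 of 27, the exception being reaggregates 5 and 6 only, where fewer samples entered the fit. In that fit their log2 fold changes were, in this order, 1.75, -2.64, -1.70, -1.38, -1.38, -1.24 and -1.50. Members up-regulated numbered 4, beside 1239 of 16933 genes. The count was 1 without a filter (932 of 25088 genes) and 1 with consecutive reaggregates averaged (312 of 16933). It was 1 with reaggregates without IL-3 only (345 genes) and 1 with those with IL-3 only (277). With de Bruijn lab flat cultures only it was 7 (2579 genes), and with the other flat cultures only 1 (627). It was 0 with reaggregates 5 and 6 only (15 genes), and 1 to 5 leaving out 1 library (766 to 2121). Members down-regulated numbered 7 (1106 genes), but 12 with no fold threshold (2665 genes). With de Bruijn lab flat cultures only they numbered 10 (1775 genes), and with the other flat cultures only 8 (1044). They numbered 0 with reaggregates 5 and 6 only (6 genes), and 6 to 8 leaving out 1 library (815 to 1522). With a replicate block the counts were 6 up and 6 down, beside 1885 and 1154 of 16933 genes. No flat culture shares a number with reaggregates 5 and 6, so the block fit gave the log2 fold changes of reaggregates 1 to 4 alone. It is no separate evidence. Same-numbered reaggregates and flat cultures did not vary together, so the numbers do not pair them. The correlations of their deviations across genes were -0.04, -0.21, 0.07 and 0.15. With IL-3 the count was 0 in every alternative run for that comparison. Between flat cultures it was 3, and 0 with any 1 left out, where 1 library is alone in its group. The promoter count was 33 in both versions.

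Values that changed sign were those of Vegfa (0.08), at -0.03 without reaggregate 3, -0.02 without reaggregate 4, -0.07 without flat culture 1 (-0.07 to 0.23 leaving out 1 library), -0.15 with de Bruijn lab flat cultures only and -0.62 with reaggregates 5 and 6 only. With the other flat cultures only, Slc2a1 was -0.03, Pdk1 -0.80 and Ndrg1 -0.93. Pdk1 was -0.08 without flat culture 2 (-0.08 to 0.82 leaving out 1 library). With reaggregates 5 and 6 only, Car9 was -0.17 and Kdm3a -0.01. The cause of these changes of sign was not tested.

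Counts over all genes (1239 up, 1106 down) also moved, to 2121 up without flat culture 3 and 766 up without flat culture 4. At these depths, levels under 3 reads (0.318 to 0.408 RPM) could not be compared, which covers Egln3, Hif3a, most libraries of Aldoc and 4 reaggregates for Edn1.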

Other observations

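Genes outside the members showed further patterns along the same lines, and were picked after their values were seen. Angptl4, an inhibitor of lipoprotein lipase, was 420 to 480 RPM in reaggregates and 137, 161, 152 and 204 RPM in flat cultures 1 to 4. Its log2 fold change was 1.48 ± 0.13 (limma adjusted p = 7.52e-05), with little spread within either group. Epo, the gene for erythropoietin, was 9.8 to 51.6 RPM in reaggregates and 3.83, 5.28, 23.5 and 6.48 RPM in flat cultures. Reaggregates 5 and 6 and flat culture 3 overlapped for Epo, whose log2 fold change was 1.73 ± 0.56 (adjusted p = 0.0388). Epo and Angptl4 are among the 8 other hypoxia pathway and HIF target genes that rose. That count was 3 with consecutive reaggregates averaged.

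For some genes the flat cultures of the 2 labels lay on either side of the reaggregates or far apart, and their values are given with no test. Hmox1 was 1410 and 961 RPM in the de Bruijn lab cultures, 100 and 190 RPM in the other flat cultures and 204 to 451 RPM in reaggregates. Ldhb, which favours the conversion of lactate to pyruvate, was 71.3 and 93.3 RPM in the de Bruijn lab cultures and 12.2 and 17.4 RPM in the other flat cultures. It was also high in reaggregates 3 and 4 (74.8 and 75.4 RPM) and low in the other reaggregates (14.9 to 25.1 RPM).

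The genes listed at 0 by label numbered 14 for the de Bruijn lab cultures and 9 for the others. Of the 14, 6 including Ndrg1 were above 5 RPM in every reaggregate. Of the 9, 4 were listed at 0 in every reaggregate as well.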
